A study of Mus musculus with 8 samples.

Results

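The contacts described here join the parts of a single narrow anchor in H3K27ac HiChIP libraries of mouse embryonic stem cells. HiChIP is a proximity ligation assay with an immunoprecipitation step: neighbouring DNA ends in fixed nuclei are joined, and joined fragments bound to a chosen protein are kept. Here that protein was histone H3 acetylated at lysine 27, found at active promoters and enhancers. In the deposited table a loop is a pair of anchors with a read count in each library, and anchors are runs of 5-kb bins that were merged. A loop was taken when its first and second anchor had the same start and the same end and the anchor was under 30 kb wide. This gave 3911 of 415681 loops, and another 1002 loops lay inside anchors of 30 kb or more. The members were chosen by coordinates of loops called from these libraries, so their presence and their width are not results.

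The study has 4 cell lines with 2 technical replicates each, grown in 15% serum with LIF and the inhibitors PD0325901 (1 µM) and CHIR99021 (3 µM). The parental lines are B6 (B6 5-1, strain C57BL/6J) and D2 (D2 5-5, strain DBA/2J). B6-13D2 is line QJ 6-1 (B6.D2-(rs30079041-rs51756099)/Bakr), which has the B6 background and the D2 allele of an interval on chromosome 13. D2-13B6 is line XE 2-4, which has the D2 background and the B6 allele of that interval. The sample labels give it as D2.B6-(rs29224292-rs13469455)/Bakr, while the design text names rs51756099 as the second marker. Each genotype is represented by 1 line, so that a difference between genotypes and a difference between lines cannot be told apart. The replicates are technical, and p-values for single loops and anchors measure only their spread.

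H3K27ac is deposited by acetyltransferases at promoters and enhancers in use and is removed by deacetylases. In embryonic stem cells, broad acetylated domains lie over genes for pluripotency factors, while most active promoters carry narrower domains that flank the nucleosome-poor start site. A contact inside 1 such domain is a short fold of the acetylated chromatin, and its frequency falls with the distance between the ends. In the deposited bin-pair counts the ends of an inside contact were at least 10 kb apart, so a 15-kb anchor has 1 possible bin pair, a 20-kb anchor 3 and a 25-kb anchor 6. The summed bin pairs equalled the loop count in 31288 of 31288 member and library values.

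Sequences from the anchors that led the line comparisons are shown first, because the comparisons concern both starts and sites far from them. The 250 bases before the annotated start are from RefSeq (GRCm38.p6), written 5′ to 3′ in the direction of transcription, with each CpG in capitals. Zfp729a, Itgav and Capza2 lie in anchors with more contacts on 1 side of a comparison, as do Gm3045, Slain2 and Tmeff1 in the opposite direction.
Zfp729a, chr13:67637782-67638031, minus strand: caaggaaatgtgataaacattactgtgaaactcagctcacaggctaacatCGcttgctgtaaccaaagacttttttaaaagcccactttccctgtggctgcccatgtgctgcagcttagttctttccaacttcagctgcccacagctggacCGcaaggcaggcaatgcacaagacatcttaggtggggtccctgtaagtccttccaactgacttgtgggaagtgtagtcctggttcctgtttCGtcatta
Gm3045, chr13:56426336-56426585, plus strand: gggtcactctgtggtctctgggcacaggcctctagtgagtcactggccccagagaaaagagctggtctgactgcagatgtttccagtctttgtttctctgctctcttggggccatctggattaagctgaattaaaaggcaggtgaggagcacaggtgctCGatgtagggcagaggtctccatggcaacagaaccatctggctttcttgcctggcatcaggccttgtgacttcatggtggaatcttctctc
Itgav, chr2:83724147-83724396, plus strand: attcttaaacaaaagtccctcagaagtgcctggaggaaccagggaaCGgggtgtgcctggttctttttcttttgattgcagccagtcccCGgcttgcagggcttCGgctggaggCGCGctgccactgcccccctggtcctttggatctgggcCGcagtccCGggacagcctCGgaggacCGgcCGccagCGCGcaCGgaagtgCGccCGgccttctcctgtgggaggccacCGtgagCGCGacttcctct
Slain2, chr5:72914112-72914361, plus strand: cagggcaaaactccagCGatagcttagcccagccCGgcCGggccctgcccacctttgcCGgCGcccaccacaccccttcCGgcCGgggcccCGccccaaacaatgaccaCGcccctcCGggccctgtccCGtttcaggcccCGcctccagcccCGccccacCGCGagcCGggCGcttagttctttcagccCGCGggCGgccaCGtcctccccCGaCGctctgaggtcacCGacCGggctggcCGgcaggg
Capza2, chr6:17636760-17637009, plus strand: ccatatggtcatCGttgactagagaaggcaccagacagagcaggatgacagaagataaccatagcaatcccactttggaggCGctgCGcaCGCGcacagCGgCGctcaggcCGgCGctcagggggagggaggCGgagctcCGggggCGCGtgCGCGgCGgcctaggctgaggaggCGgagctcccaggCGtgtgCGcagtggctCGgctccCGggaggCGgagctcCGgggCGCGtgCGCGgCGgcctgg
Tmeff1, chr4:48584924-48585173, plus strand: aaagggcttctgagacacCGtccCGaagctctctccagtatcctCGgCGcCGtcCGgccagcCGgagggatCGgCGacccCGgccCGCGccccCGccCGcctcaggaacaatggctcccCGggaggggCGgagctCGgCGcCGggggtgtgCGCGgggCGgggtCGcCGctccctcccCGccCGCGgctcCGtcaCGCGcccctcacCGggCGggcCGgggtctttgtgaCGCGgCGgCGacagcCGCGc
These windows hold 3, 1, 18, 26, 28 and 39 CpGs in that order, against a median of 6 (quartiles 2 and 16) over all 32851 promoter windows of the table. For promoter anchors, 1811 of 2179 had a gene matched by symbol, and in 1531 the window lay inside the anchor.

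Anchors were searched on both strands for the OCT4-SOX2 composite motif, the ESRRB motif TCAAGGTCA and the NRF1 motif, which is its own reverse complement. The windows below show 40 bases around a match in named distal anchors, from GRCm38. The match is in capitals, which give all letters searched, except that any base was allowed at the fifth position of the OCT4-SOX2 motif.
OCT4-SOX2 match, chr5:104729560-104729599, plus strand: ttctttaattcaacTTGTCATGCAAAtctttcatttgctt
OCT4-SOX2 match, chr2:122652127-122652166, minus strand: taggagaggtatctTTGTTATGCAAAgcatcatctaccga
ESRRB match, chr15:43529947-43529986, minus strand: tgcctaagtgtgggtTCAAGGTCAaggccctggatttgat
ESRRB match, chr10:60175513-60175552, plus strand: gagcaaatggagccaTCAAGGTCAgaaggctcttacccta
NRF1 match, chr14:120855876-120855915, plus strand: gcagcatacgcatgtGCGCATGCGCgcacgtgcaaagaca
OCT4, SOX2 and ESRRB are transcription factors of the pluripotency network, and NRF1 binds CpG-rich promoters. Both OCT4-SOX2 windows and the second ESRRB window come from anchors with fewer contacts on the D2 background, the first ESRRB window from one with more, and the NRF1 window from one with fewer contacts with the D2 interval allele. A match is a run of letters in the reference and no evidence that a factor binds there. Among 15-kb anchors, an NRF1 match occurred in 3.86% of 1167 promoter anchors (exact binomial 95% interval 2.83 to 5.13) and 1.04% of 676 distal anchors (0.417 to 2.12), against 0.882% of 176156 genome windows of that width. For ESRRB the shares were 42.5%, 35.8% and 26.6%. For OCT4-SOX2 they were 1.37%, 1.92% and 1.63%, and the intervals of promoter (0.786 to 2.22) and distal anchors (1.03 to 3.27) both held the share of genome windows. The median GC content of the same anchors was 45.6% at promoters and 43.2% at distal sites, against 41.0% in genome windows, and the median CpG density was 15.1, 9.13 and 7.27 per kb.

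Of the 3911 anchors, 2287 were 15 kb, 1062 were 20 kb and 562 were 25 kb wide. Promoter anchors, which hold an annotated transcript start of a protein-coding gene, numbered 2179 (55.7%), and 1794 of them held the 5′ end of the gene record. Distal anchors, with no annotated start of any gene inside or within 5 kb, numbered 1004 (25.7%), of which 443 lay in the body of a protein-coding gene. The other 728 anchors held or neighboured a start without meeting either definition. Promoter anchors made up 51.0% of 15-kb and 68.3% of 25-kb anchors, and distal anchors 29.6% and 17.1%. The counts of the 8 libraries summed to 732306 in all members, of which promoter anchors held 65.7% and distal anchors 19.1%. The median anchor had 106 counts over all libraries, the fullest 1519, and 16 anchors had a single count.

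Library totals ran from 737955 to 1425304 counts, and the narrow anchors held 63529 to 123288 of them, or 8.22% to 9.11% (the interval of counting error on a single share is at most 0.129 points wide). Markers were counted over all contacts of anchors holding their start. All 8 embryonic stem cell markers had such an anchor, at 3296 to 4443 CPM (counts-per-million) in sum. Of the fibroblast markers 2 of 8 had one (18.4 to 41.7), of the primitive endoderm markers 1 of 6 (454 to 699), and of the trophoblast (6) and two-cell-like (5) markers none. Between the 2 replicates of a line, log2 CPM over members correlated at 0.861 to 0.928 (Pearson, across anchors, which are not independent replicates). Replicate counts differed by more than sampling noise in B6, B6-13D2 and D2 (chi-square over its degrees of freedom 1.14 to 1.21). In D2-13B6 they did not over members (0.992) but did over all loops (1.05). They were kept as 2 libraries, and counting them once is given beside the named calls it changed.

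Contact counts inside an anchor were higher at promoters than at distal sites in every library. CPM from here on refer to the counts of tested loops, scaled by TMM factors of 0.953 to 1.05. The median promoter anchor had 18.4 to 19.9 CPM over the 8 libraries, and the median distal anchor 10.5 to 13.1 CPM. Anchor width differs between these classes, so the medians were also set side by side at 1 width. At 15 kb the medians were 9.65 to 11.1 CPM at promoters and 7.02 to 9.52 CPM at distal sites. At 25 kb they were 71.1 to 80.1 CPM and 54.8 to 63.1 CPM. The promoter median was 1.14 to 1.38 times the distal one at 15 kb, 1.21 to 1.36 times at 25 kb, and 1.5 to 1.83 times over all widths. Promoter anchors had no count in a library in 0.780% to 1.51% of cases and distal anchors in 1.79% to 3.49%. The distal share with no count was lowest in D2-13B6, whose libraries were the deepest (1395052 and 1425304 counts), at 1.89% ± 0.141, against 2.84% ± 0.916, 2.99% ± 0.282 and 3.14% ± 0.493 for B6, B6-13D2 and D2 (SD, n = 2 each).

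Counts summed over an anchor differed more between widths than between classes, but a wider anchor has more possible bin pairs. There are 1, 3, 6 and 10 pairs at 15, 20, 25 and 30 kb, so part of the rise with width was fixed in advance. At a distance of 10 kb, the mean per bin pair was 10.5 to 11.8 CPM in 15-kb anchors and 16.8 to 19.3 CPM in 25-kb anchors. The median total over all libraries was 66 counts at 15 kb, 225 at 20 kb and 486 at 25 kb. Just outside the limit, the 342 anchors of 30 kb had a median of 789 counts. The median at 15 kb lay between 8.62 and 9.90 CPM in the 8 libraries, at 25 kb between 67.0 and 75.1 CPM and at 30 kb between 106 and 120 CPM.

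**Figure D1:**
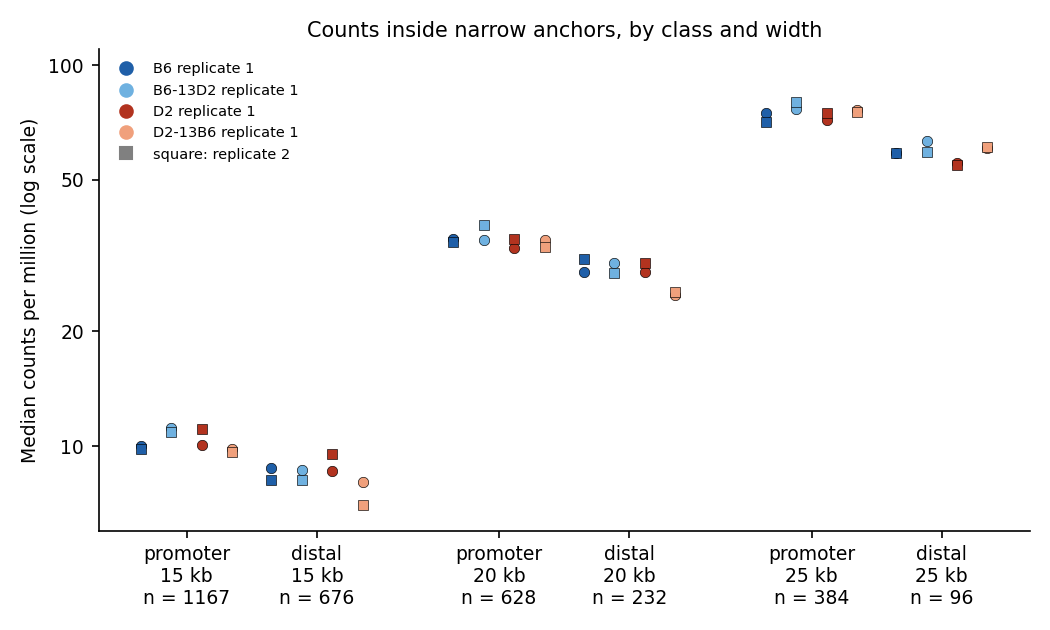
Median CPM inside an anchor, by library and line, for promoter and distal anchors of each width. The points of promoter anchors lie above those of distal anchors at 25 kb (71.1 to 80.1 against 54.8 to 63.1 CPM), and the width classes lie farther apart than the lines. Wider anchors have more possible bin pairs.

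Within 25-kb anchors, the count per possible bin pair fell with the distance between the bins. At 15 kb it was 0.457 to 0.493 of that at 10 kb, and at 20 kb 0.255 to 0.288. Promoter anchors (0.455 to 0.497 and 0.261 to 0.287) and distal anchors (0.449 to 0.487 and 0.244 to 0.290) had overlapping ranges over the 8 libraries. Within single lines the classes did not always overlap. The ratio at 20 kb was 0.261 and 0.263 at promoters against 0.244 and 0.249 at distal sites in the B6-13D2 libraries. It was 0.284 and 0.287 against 0.29 and 0.287 in the D2-13B6 libraries, where distal sites were not the lower ones. Among 15-kb promoter anchors, whose only counted pair joins the first and the third bin, those with a start in an end bin only (580) had a median of 11.2 CPM in the median library. Those with starts in the middle and an end bin (368) had 9.86 CPM and those with a start in the middle bin only (219) had 8.85 CPM. The middle-bin group was above the end-bin group in 0 of 8 libraries. The 676 distal anchors of that width had 8.39 CPM, within the range of the middle-bin group (8.17 to 9.90 CPM over libraries, distal 7.02 to 9.52).

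**Figure D2:**
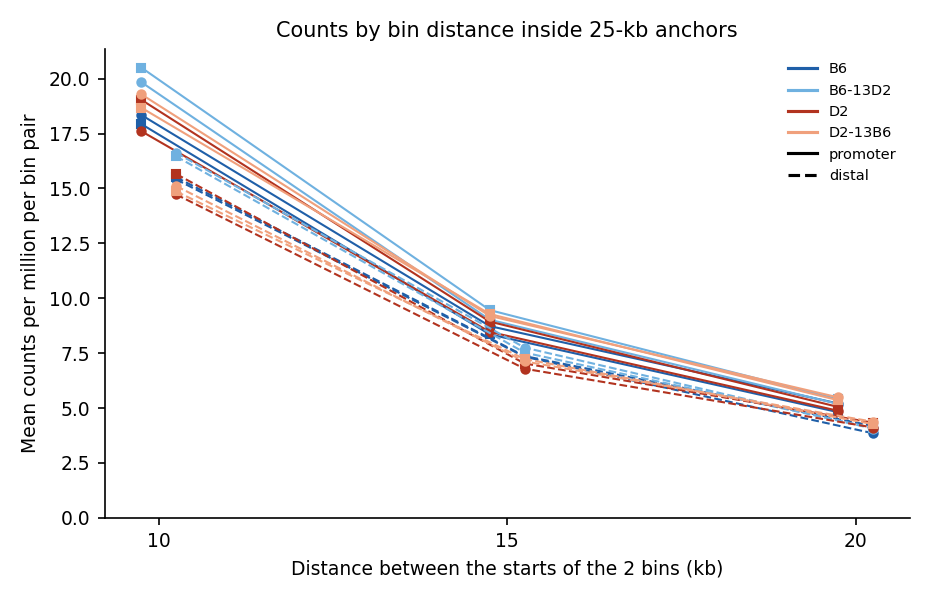
Count per possible bin pair against the distance between the bins in 25-kb anchors, by library, for promoter and distal anchors. The values at 20 kb are 0.255 to 0.288 of those at 10 kb over all 25-kb anchors.

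Of all contacts made by narrow anchors, 15.7% to 17.2% stayed inside the anchor. This share, the narrow anchors' share of the library and the promoter share of narrow counts were each compared between backgrounds, interval alleles and parental against congenic lines. In these 9 exact permutation tests (two-sided, 4 libraries against 4, 70 splits, smallest possible p 0.0286) none passed after Benjamini-Hochberg adjustment. Each side is 2 lines with 2 technical replicates each, so the 4 libraries of a side are not independent samples. The splits also part the replicates of a line, and these p-values mix differences between lines with those between replicates. The narrow share was 8.47% ± 0.257 on the D2 background and 8.88% ± 0.252 on the B6 background (SD, n = 4 each, difference -0.411 points, exact permutation p = 0.0857, adjusted 0.309). The promoter share was 65.0% ± 0.645 in parental and 66.0% ± 0.590 in congenic lines (n = 4 each, difference -1.06 points, exact permutation p = 0.0857, adjusted 0.309). Each of these pairs of ranges overlapped. The narrow share with the D2 interval allele was 8.84% ± 0.349 and with the B6 allele 8.51% ± 0.216 (n = 4 each, exact permutation p = 0.171, adjusted 0.309). Wider anchors held 20.7% to 24.9% of the counts in the same libraries.

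The question of the design is how contacts depend on the genetic background and on the chromosome 13 allele. The background effect sets both D2-background lines against both B6-background lines, and the interval effect sets both lines with the D2 allele against both with the B6 allele. Each was estimated for 44706 loops by the quasi-likelihood test of edgeR, and a loop was called at a false discovery rate (FDR) of 0.05. Of the members, 3692 could be tested (2112 promoter, 924 distal and 656 other), and 219 were too sparse. The background effect was called in 562 members (15.2% of those tested), 229 higher and 333 lower on the D2 background, against 8.85% of all tested loops (4.3% higher, 4.55% lower). Members are counted more deeply than most loops, and among loops with 50 to 500 counts the shares were 16% of members and 11.7% of all.

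Distal anchors were called more often than promoter anchors. The background effect was called in 166 of 924 distal anchors (18%, exact binomial interval 15.5 to 20.6) and in 269 of 2112 promoter anchors (12.7%, 11.3 to 14.2). In 15-kb anchors it was called in 68 of 603 distal (11.3%, 8.86 to 14.1) and 68 of 1110 promoter anchors (6.13%, 4.79 to 7.70). At 20 kb the shares were 30.7% (24.7 to 37.1) of 225 and 17.8% (14.8 to 21.0) of 619. At 25 kb they were 30.2% (21.3 to 40.4) of 96 and 23.8% (19.6 to 28.3) of 383, and these intervals overlapped. Distal anchors had the lower median totals at each width (60, 201 and 420.5 counts against 73, 247 and 545.5). The difference between the shares was not tested, and the intervals treat anchors as independent, which neighbours are not. Among called anchors the median absolute log2 fold change was 1.14 at distal sites and 0.81 at promoters. These values cover called anchors only, and with fewer counts a call needs a larger difference. More than 2-fold differences made up 103 of 166 distal and 96 of 269 promoter calls.

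**Figure D3:**
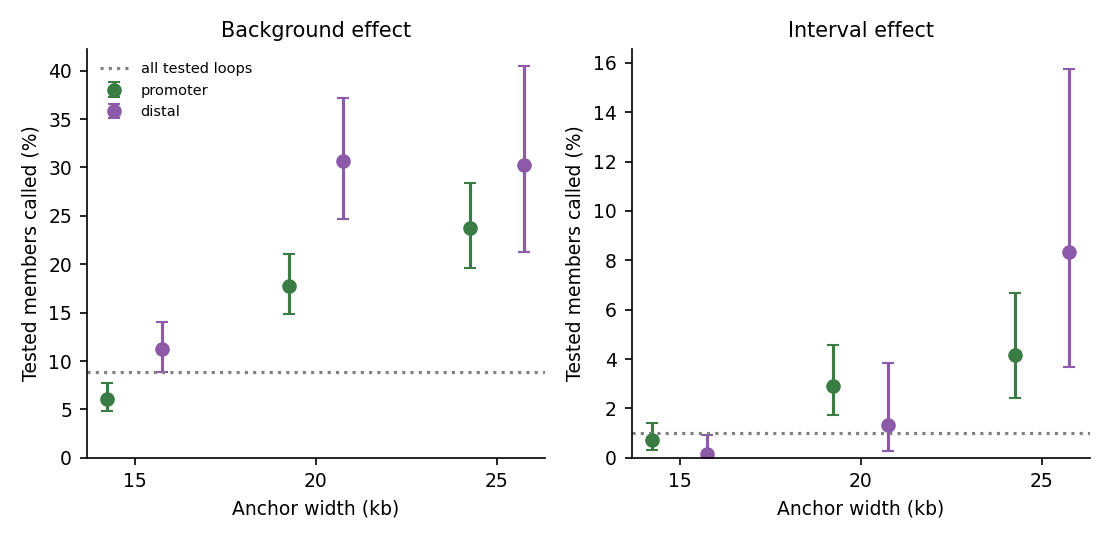
Percent of tested anchors called for the background and the interval effect, by class and width, with exact binomial 95% intervals. For the background effect the distal share is above the promoter share at 15 kb (11.3% against 6.13%) and at 20 kb (30.7% against 17.8%), and at 25 kb the intervals overlap.

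The background effect can be read from pairs of lines that share no library. Away from chromosome 11, D2-13B6 minus B6 called 322 members (9.49% of those tested, against 5.49% of all tested loops) and D2 minus B6-13D2 called 217 (6.39%, against 3.68%). Of the 322, 286 (88.8%) had the same sign in the other pair, and of the 217, 200 (92.2%) did, while 64.2% of all tested members off chromosome 11 had the same sign. The calls shared were 100, or 31.1% and 46.1% of the lists, and all 100 had the same sign. Over all chromosomes D2-13B6 minus B6 called 375 members (10.2% of members, 5.95% of all loops) and D2 minus B6-13D2 called 230 (6.23% and 3.57%). The parental comparison D2 minus B6 called 175 (4.74% and 2.65%), with 82 higher and 93 lower, while 1.38% and 1.27% of all loops were called in these directions. The D2 minus B6 count was 76 without B6 replicate 1, 105 without D2 replicate 1 and 84 without D2 replicate 2. The D2-13B6 minus B6 count fell to 183 and 241 without B6 replicates 1 and 2, and to 224 and 194 without D2-13B6 replicates 1 and 2. That of D2 minus B6-13D2 fell to 118 without B6-13D2 replicate 2, 109 without D2 replicate 1 and 117 without D2 replicate 2.

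Chromosome 11 stood apart in D2-13B6. Of its 298 tested members, 53 were called in D2-13B6 minus B6 (17.8%, against 9.75% of all tested loops on that chromosome) and 51 of these were higher, with a median log2 difference of 0.46 over all of them. In D2 minus D2-13B6, 14 were called (4.70%, against 3.82% of all loops there), all lower (median -0.45). In D2 minus B6 the median was 0.01. Of the 50 background calls on chromosome 11 (16.8% of members, against 9.42% of all loops there), 43 were higher on the D2 background. Chromosome 11 was left out of the choice of anchors named for the background effect, apart from 2 given for it, the gene lists and the anchors with the highest mean CPM.

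Among promoter anchors more connected on the D2 background, the one with the smallest FDR lies at Snapc3 (chr4:83435001-83460000, mm10), where an annotated transcript of this small nuclear RNA activating complex subunit starts. The anchor does not hold the 5′ end of the gene record. That also holds for the anchors named below at Glo1, Neo1, Btaf1, Fam49b, Vps53, Agps, Pds5a, Zfp951 and Zfp536, where the start inside is internal to the gene record. The Glo1 anchor does hold a RefSeq start of Glo1, with its upstream window at chr17:30612660-30612909 on the minus strand. The counts at Snapc3 gave 39.96 and 39.2 CPM in B6, 43.3 and 36.2 in B6-13D2, 168 and 197 in D2, and 141 and 147 in D2-13B6. The 4 libraries of the D2 background were all above the 4 of the B6 background. The means were 163 ± 25.4 and 39.7 ± 2.92 CPM (SD, n = 4 each), and the log2 fold change was 2.03 (SE 0.15, edgeR FDR 1.92e-40). The pair of bins 2 and 4 held 60.5% of the net difference. Contacts of the same anchor with other anchors differed less, by 0.50 on the log2 scale.

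Wiz encodes a zinc finger protein that works with histone methyltransferases. Its anchor (chr17:32360001-32380000) holds RefSeq starts of Wiz that are internal to the gene record, and not the 5′ end of that record. The CPM were 18.7 and 9.80 in B6, 13.6 and 11.8 in B6-13D2, 64.6 and 57.1 in D2, and 50.8 and 54.4 in D2-13B6. The groups did not overlap (56.8 ± 5.85 against 13.5 ± 3.83 CPM, n = 4 each, log2 fold change 2.04, edgeR FDR 8.83e-17). Contacts to other anchors were lower by comparison (log2 fold change -0.35, FDR 0.0206). A single pair, of bins 2 and 4, carried the difference, with 52.6 against 7.39 CPM. The other pairs of this anchor had 4.17 and 6.09 CPM, in the opposite direction.

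Glo1, which encodes glyoxalase I of methylglyoxal detoxification, had 226 ± 27.2 against 93.8 ± 24.7 CPM at chr17:30590001-30615000 (n = 4 each, log2 fold change 1.26, edgeR FDR 2.46e-23). Its libraries on the B6 background had 78.7 and 78.4 CPM in B6 and 87.8 and 130 in B6-13D2, so the second B6-13D2 library was the closest to the D2 background (200 and 206 in D2, 257 and 239 in D2-13B6). There the difference was spread, with 28.2% in the leading bin pair, and the contacts outside the anchor differed alike (1.11). Itgav, an integrin subunit (chr2:83705001-83730000), differed by 1.13 inside (127 ± 10.6 against 58.0 ± 10.6 CPM, FDR 3.73e-13) and by 0.86 outside, and D16Ertd472e by 1.5 inside (FDR 3.51e-13) with no call outside (0.09).

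Promoter anchors less connected on the D2 background included Slain2, whose product promotes microtubule growth. At chr5:72895001-72920000 the CPM were 87.4 and 83.3 in B6, 111 and 108 in B6-13D2, 25.8 and 22.2 in D2, and 21.4 and 25.4 in D2-13B6. The highest library of the D2 background was below the lowest of the B6 background, at 23.7 ± 2.24 against 97.4 ± 14.1 CPM (n = 4 each, log2 fold change -2.02, edgeR FDR 3.47e-26). Its CpG-rich upstream sequence is shown above. Stard3nl, a late endosomal protein, had 9.37 ± 4.86 against 57.2 ± 8.41 CPM at chr13:19380001-19400000 (n = 4 each, log2 fold change -2.61, FDR 7.59e-23), and -3.35 without D2 replicate 2. Its contacts outside were lower by 1.90 too (log2 fold change -1.90). Neo1, the receptor neogenin (chr9:58965001-58985000), had 32.8 ± 3.32 against 95.8 ± 22.0 CPM (-1.52), with 76.8% of the difference in 1 bin pair.

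Btaf1, an ATPase that removes TATA-binding protein from DNA (chr19:36940001-36965000), had 263 and 260 CPM in B6, 168 and 149 in B6-13D2, 80.4 and 113 in D2, and 92.8 and 89.5 in D2-13B6. The background groups did not overlap (log2 fold change -1.12, FDR 2.59e-18), and B6 was itself above B6-13D2. Gm14412, a predicted zinc finger gene, had 11 and 10 counts in B6, 31 and 19 in B6-13D2 and none in the 4 libraries of the D2 background. Against a floor of 3 counts over those 4 libraries it was at least 25.5-fold lower (edgeR FDR 5.15e-18). The anchor's outside contacts were lower by a log2 fold change of only -0.66, so that the anchor as a whole was not without reads on the D2 background.

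Distal anchors included 2 that were nearly without counts on the B6 background. At chr17:89930001-89945000, 19.6 kb from the nearest 5′ end of a protein-coding gene record (Gm10184), the counts were 2 and 0 in B6, 0 and 0 in B6-13D2, 78 and 79 in D2, and 94 and 102 in D2-13B6. The D2 background had 103 ± 19.4 CPM and the B6 background 0.624 ± 1.25 CPM (n = 4 each, edgeR FDR 5.9e-81). From the 2 counts of the B6 background the ratio of the rates was 164, with a counting interval of 45 to 1357, and both counts came from B6 replicate 1. Its contacts to other anchors differed by 1.73 on the log2 scale (FDR 0.00138). An anchor at chr13:33050001-33065000 had 2, 3, 0 and 0 counts on the B6 background and 37, 35, 40 and 19 on the D2 background, or 1.85 ± 2.35 against 40.3 ± 18.1 CPM (n = 4 each, FDR 7.21e-28). Both B6-13D2 libraries were at 0, so no fitted fold change is given.

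In the body of Emc2, whose product belongs to a membrane protein insertion complex, the anchor chr15:43510001-43535000 had 9.99 and 29.4 CPM in B6, 19.8 and 19.0 in B6-13D2, 99.1 and 130 in D2, and 120 and 104 in D2-13B6. All D2-background libraries were above all others (113 ± 14.5 against 19.5 ± 7.93 CPM, log2 fold change 2.57, edgeR FDR 5.67e-41). Its outside contacts were not called (0.38, FDR 0.0909). This is the anchor of the first ESRRB window above. Anchors at chr5:73685001-73705000 and chr16:25510001-25530000 were higher by 1.97 and 2.47. The latter was at 3.12 without B6 replicate 2.

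Among the lower distal anchors, chr5:104720001-104745000 had 26 and 28 counts in B6, 11 and 19 in B6-13D2 and none in any D2-background library. It was at least 30.2-fold lower against a floor of 3 counts over the 4 libraries (edgeR FDR 9.5e-23). The outside contacts of this anchor had a log2 fold change of -0.53 (FDR 0.0116). It holds the OCT4-SOX2 match of the first window and lies 115 kb from the nearest 5′ end of a protein-coding gene record, that of Zfp951. The anchor chr2:122650001-122670000, with the second OCT4-SOX2 match, had 41.2 and 21.2 CPM in B6, 39.6 and 40.7 in B6-13D2, 7.18 and 3.17 in D2, and 2.68 and 2.63 in D2-13B6. No library of the D2 background reached the lowest of the B6 background (log2 fold change -3.22, FDR 2.06e-19, outside -1.15).

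The anchor chr10:60160001-60180000 had 24.6 ± 2.86 against 79.1 ± 5.85 CPM (n = 4 each, log2 fold change -1.69, edgeR FDR 3.18e-17), with the ESRRB match of the last ESRRB window. One in Ccdc93 at chr1:121450001-121470000 had 14.6 ± 2.34 against 52.7 ± 7.62 CPM (-1.84) and fell outside as well (-1.77). On chromosome Y, 1 member (chrY:90795001-90815000, in Gm47283) had 35.0 and 53.9 CPM in B6, 99.0 and 72.4 in B6-13D2, and at most 2.87 in any D2-background library. Its log2 fold change was -5.28 (FDR 6.89e-44), and leaving out D2 replicate 1 or D2-13B6 replicate 2 gave -7.07 and -6.92. Its outside contacts went the other way (0.86, FDR 1.18e-08).

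All reads were aligned to mm10, which is the C57BL/6J genome, per the submitters' processing notes. An effect of the D2 sequence on contacts and one on alignment therefore cannot be told apart. Values of zinc finger genes such as Gm14412 and Zfp729a, and of chromosome Y, are uncertain where near-identical copies share reads. Of the 20 anchors over 15 kb wide that are named for the background effect (chromosome 11 included), 10 had over 50% of the net difference in a single bin pair (median 49.7%). Outside contacts were summed per anchor and tested in the same way. They were called in 1416 of 3835 members (36.9%), against 24% of all tested anchors, in 32.5% of promoter and 41.0% of distal members. Of the 562 members called inside, 419 were also called outside, and 408 of these had the same sign.

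**Figure D4:**
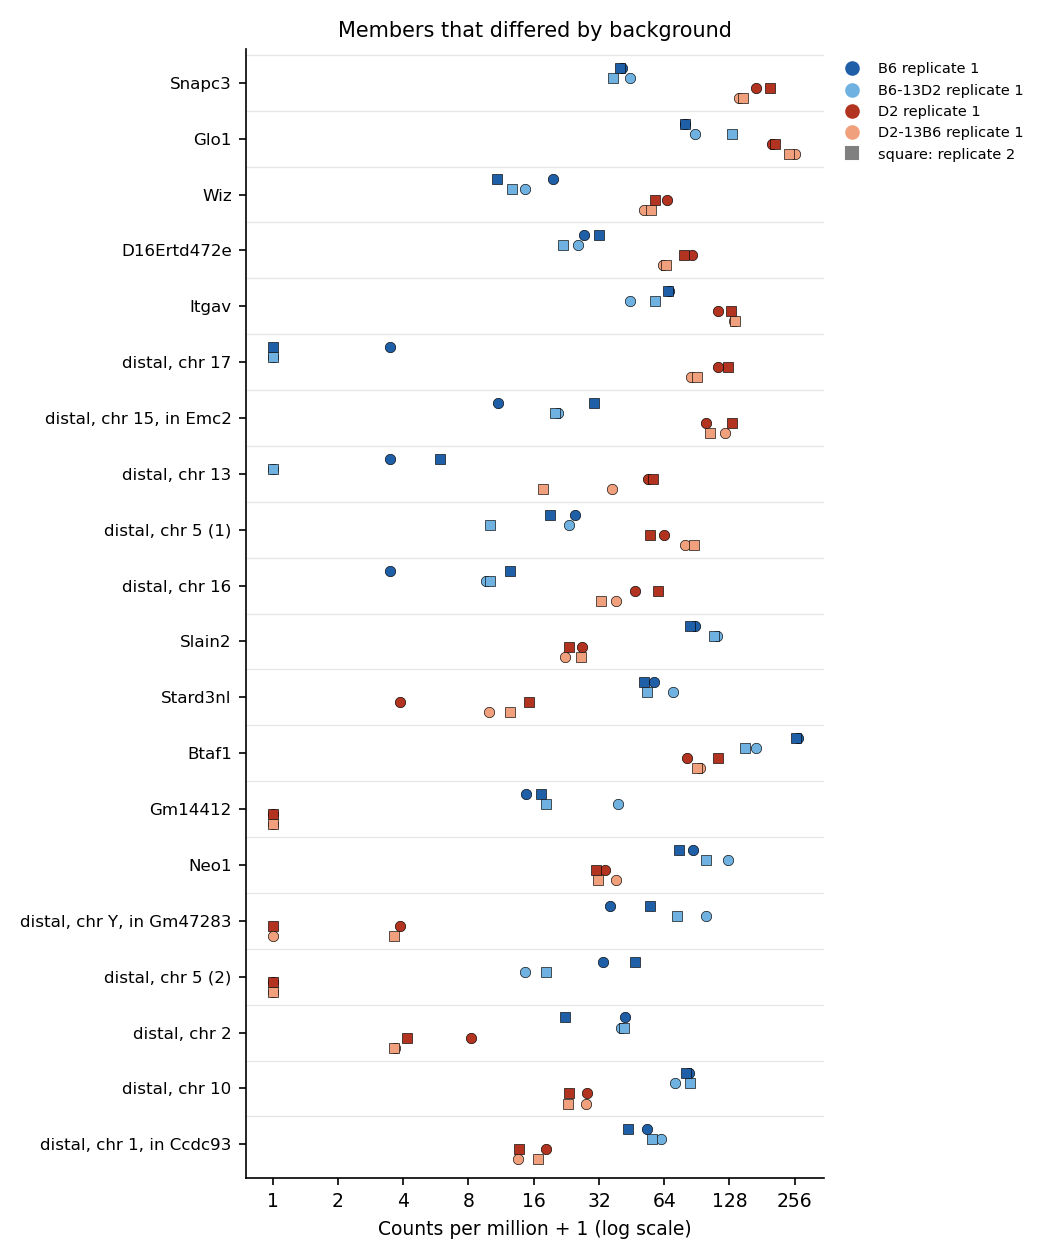
CPM + 1 on a log axis for the anchors named for the background effect, by library (replicate 1 circles, replicate 2 squares). In each anchor every library of one background lies above every library of the other, as at Slain2 (23.7 ± 2.24 against 97.4 ± 14.1 CPM).

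The interval effect was called in far fewer members. It was called in 66 (1.79% of those tested), 33 higher and 33 lower with the D2 allele, against 0.986% of all loops (0.425% and 0.561%). Promoter anchors held 42 of them (1.99% of 2112), distal anchors 12 (1.3% of 924) and other anchors 12. At 15 kb the shares were 0.721% of promoter and 0.166% of distal anchors, at 20 kb 2.91% and 1.33%, and at 25 kb 4.18% (exact binomial interval 2.41 to 6.70) and 8.33% (3.67 to 15.8). The distal shares rest on 1, 3 and 8 calls. The intervals of both classes overlap at each width, and the difference between the classes was not tested. Leaving out 1 library changed the count by more than 1.5 times in 6 of 8 cases: 20 members were called without B6 replicate 1, 36 without B6-13D2 replicate 1, 40 without D2 replicate 1, 27 without D2 replicate 2, 36 without D2-13B6 replicate 1 and 30 without D2-13B6 replicate 2. It was 41 with the D2-13B6 libraries counted once. On chromosome 13, 8 of 167 tested members were called (4.79%), against 3.92% of all tested loops of that chromosome. On chromosome 11, 9 were called (3.02%, against 1.8% of all loops there), all lower with the D2 allele.

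The interval effect can also be read from pairs that share no library. B6-13D2 minus B6 called 55 members (1.49%, against 0.859% of all loops), 33 higher and 22 lower (0.537% and 0.322% over all loops). D2 minus D2-13B6 called 42 (1.14%, against 0.922%), 9 higher and 33 lower (0.188% and 0.734% over all loops). Of the 55, 40 had the same sign in the other pair, and of the 42, 28, while 53.4% of all tested members did. The lists shared 5 members, or 9.09% and 11.9% of them. On chromosome 13, 6 of 6 and 6 of 7 calls had the same sign (3.59% and 4.19% of the members there were called, against 3.23% and 2% of all loops), and 2 were shared. Scaling by library totals alone turned the share of higher calls in D2 minus D2-13B6 from 21.4% to 32.5%. The B6-13D2 minus B6 count was 11 without B6 replicate 1, 36 without B6 replicate 2, 14 without B6-13D2 replicate 1 and 26 without B6-13D2 replicate 2. The D2 minus D2-13B6 count was 11 and 14 without D2 replicates 1 and 2, and 20 and 15 without D2-13B6 replicates 1 and 2.

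The interval effect with the smallest FDR was at Zfp729a on chromosome 13 (chr13:67635001-67655000), in an anchor that also holds the start of Gm49345. Zfp729a encodes a zinc finger protein of a family clustered on this chromosome. The counts were 9 and 3 in B6 and 6 and 9 in D2-13B6, against 57 and 56 in B6-13D2 and 47 and 49 in D2. In CPM these were 11.2, 4.90, 5.35 and 7.90 with the B6 allele and 70.5, 50.7, 67.5 and 77.8 with the D2 allele. Every library with the D2 allele was above every one with the B6 allele, on both backgrounds. The means were 66.6 ± 11.5 and 7.35 ± 2.91 CPM (SD, n = 4 each), and the log2 fold change was 3.10 (SE 0.25, edgeR FDR 1.92e-31). It was 2.79 between the B6-background lines and 3.42 between the D2-background lines, and the former was 3.56 without B6 replicate 1. Of the net difference, 74.3% lay in 1 bin pair. Contacts of the anchor with other anchors went the other way (log2 fold change -0.40, FDR 0.0488). The upstream sequence of Zfp729a shown above has few CpGs.

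Other chromosome 13 anchors went in both directions. Fancc encodes a subunit of the Fanconi anemia DNA repair complex, and its anchor (chr13:63345001-63360000) holds an internal start. The counts were 18 and 13 in B6 and 23 and 17 in D2-13B6, against 2 and 3 in B6-13D2 and 2 and 3 in D2. The alleles did not overlap (3.21 ± 1.05 against 19.8 ± 3.35 CPM, n = 4 each, log2 fold change -2.59, edgeR FDR 2.05e-07), and outside contacts were also lower (-1.02). Gm3045 (chr13:56415001-56435000) had 3.63 ± 2.01 against 14.4 ± 7.36 CPM (-2.0, FDR 0.00187), a call lost without B6 replicate 1 (-1.64, FDR 0.208) or D2-13B6 replicate 2 (-1.80, FDR 0.0719). The anchor of Habp4 and Zfp367 (chr13:64150001-64165000) had 31.0 ± 4.44 against 13.6 ± 6.44 CPM (1.24, FDR 0.00143). That call was lost without D2 replicate 1 (1.11, FDR 0.0612) or D2-13B6 replicate 2 (1.03, FDR 0.0569).

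Off chromosome 13, Dmtn, which encodes an actin-bundling protein, had 150 and 140.5 CPM in B6 and 122 and 135 in D2-13B6, against 94.0 and 104 in B6-13D2 and 60.3 and 47.6 in D2. The ranges did not overlap (log2 fold change -0.90, edgeR FDR 1.11e-07). Galp and Zscan5b share an anchor (chr7:6200001-6225000) with 40.4 ± 10.1 against 79.4 ± 9.85 CPM (-0.98, FDR 8.62e-06). Tmeff1, a transmembrane protein gene, had 27 ± 7.08 against 55.0 ± 14.7 CPM (-1.0, FDR 0.000431), with 72.8% of the difference in 1 bin pair. A distal anchor at chr14:120845001-120870000, which holds the NRF1 match above, had 39.1 ± 12.4 against 72.5 ± 7.31 CPM (-0.95, FDR 3.56e-05) and fell outside by 0.71 (log2 fold change -0.71). A distal anchor near Fads2 (chr19:10125001-10150000) differed by -0.49 (FDR 0.0128) and was not called without B6 replicate 1, B6-13D2 replicate 1, D2 replicate 1 or D2-13B6 replicate 2 (FDR 0.143 to 0.226).

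The higher anchors named off chromosome 13 had log2 fold changes of 0.51 to 1.14. Fam49b, a regulator of the actin cytoskeleton (chr15:63985001-64000000), had 96.5 and 84.2 CPM in B6-13D2 and 54.6 and 74.6 in D2, against 35.0 and 44.1 in B6 and 49.95 and 49.1 in D2-13B6 (log2 fold change 0.79, edgeR FDR 0.00142). The lowest library with the D2 allele was 54.6 and the highest with the B6 allele 49.95 CPM. It was not called without B6 replicate 1 or D2 replicate 2 (FDR 0.0639 and 0.0968). Capza2, an actin capping subunit, and Eloc with Tmem70 differed by 0.51 and 0.60, and each lost its call in 4 of 8 runs without 1 library. Those were the runs without B6 replicate 1, D2 replicate 1, D2 replicate 2 or D2-13B6 replicate 2 for Capza2, and without B6 replicate 1, B6-13D2 replicate 2, D2 replicate 2 or D2-13B6 replicate 1 for Eloc with Tmem70 (FDR 0.0573 to 0.161 and 0.0618 to 0.218). Distal anchors in Cntnap2 and Mtus2 differed by 0.79 and 0.65, and one at chr5:14305001-14325000 by 1.14. The first was not called without D2 replicate 2 or D2-13B6 replicate 1, the second without D2 replicate 2, and the third without B6 replicate 1, B6-13D2 replicate 1, D2 replicate 1 or D2-13B6 replicate 2 (FDR 0.0603 to 0.0914, 0.122, and 0.109 to 0.141). Those in Dmd and Cdh4, with 0.56 and 0.64 at an FDR of 0.044 each, lost the call in 7 of 8 runs each, with Dmd keeping it only without B6 replicate 2 and Cdh4 only without B6-13D2 replicate 1 (FDR up to 0.344 and 0.233 in the other runs). Neither was called with the D2-13B6 libraries counted once (FDR 0.0875 and 0.0823). Of the 14 interval anchors wider than 15 kb, 3 had over 50% of the difference in 1 bin pair (median 36.9%). Outside contacts were called in 391 of 3835 members (10.2%), against 5.33% of all anchors, and of the 66 members called inside 36 were, with 35 of the same sign.

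**Figure D5:**
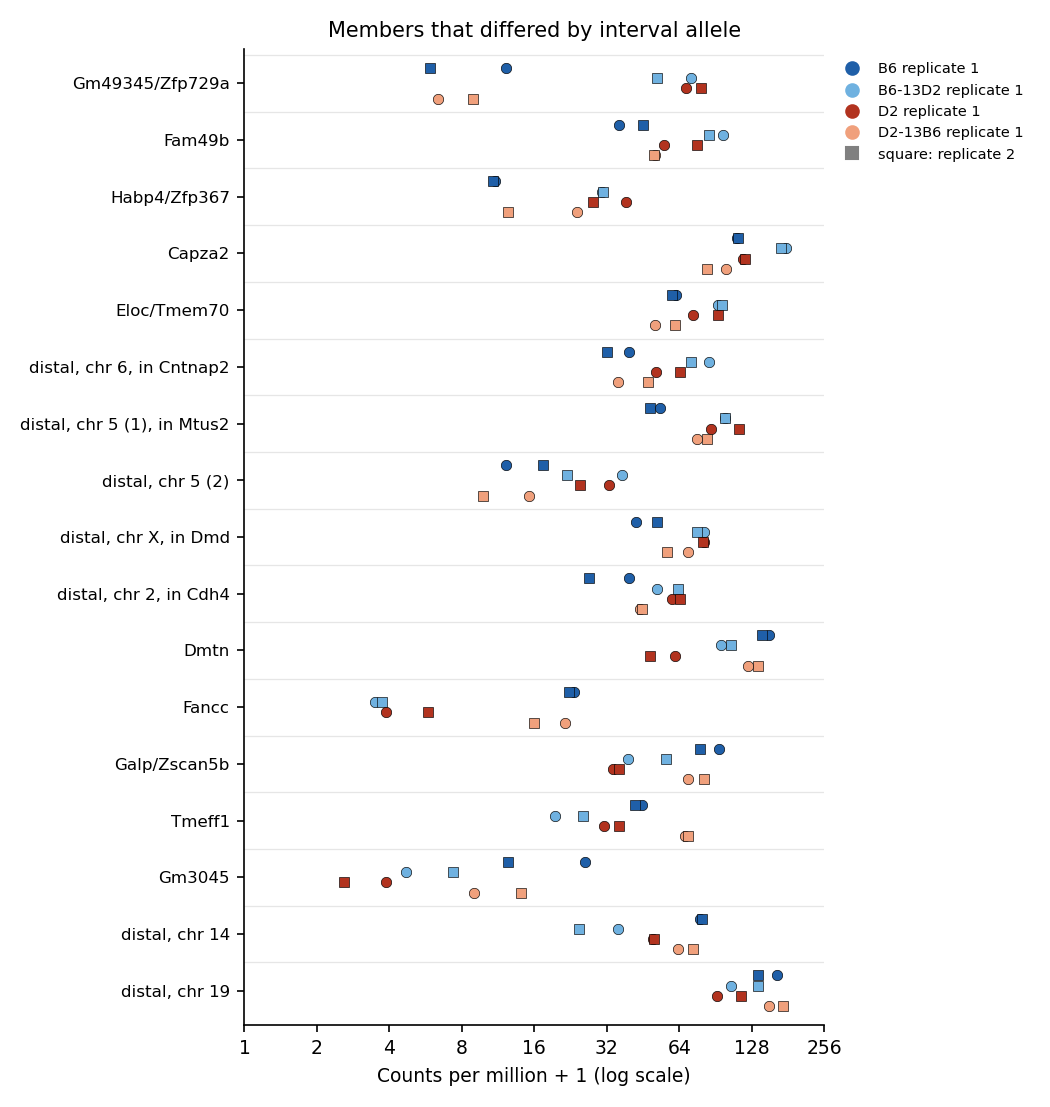
CPM + 1 on a log axis for the anchors named for the interval effect, by library (replicate 1 circles, replicate 2 squares). At Zfp729a the D2-allele libraries lie at 50.7 to 77.8 CPM and the B6-allele libraries at 4.90 to 11.2 CPM.

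Several anchors were named for a difference between 2 lines. An anchor holding the start of the non-coding Gm18969 (chr1:101750001-101775000) had 9.99 and 21.2 CPM in B6, 11.1 and 14.5 in B6-13D2, 200 and 237 in D2, and 189 and 165 in D2-13B6. The D2-background lines were higher in each pairing, by 3.86 (D2 minus B6, edgeR FDR 2.98e-46), 3.56 (D2-13B6 minus B6) and 4.04 (D2 minus B6-13D2). One with Gm31415 (chr3:49060001-49085000) differed by 3.90 and 3.56 from B6 in D2 and D2-13B6. An anchor with Gm13853 (chr6:33980001-34005000) was highest in D2-13B6, at 84.7 and 91.2 CPM, against 33.0 and 25.4 in D2, 38.7 and 44.1 in B6 and 16.1 and 19.9 in B6-13D2. The D2 minus D2-13B6 difference was -1.58 (FDR 6.05e-07). Fads1, a fatty acid desaturase gene, had 174 and 187 CPM in D2-13B6 and 80.4 and 90.5 in D2 (-1.08, FDR 1.21e-06). The anchor with Gm26349 was higher in D2 than in D2-13B6 by 1.28 (FDR 0.000116), a call lost without D2 replicate 1 (FDR 0.217) or D2-13B6 replicate 2 (FDR 0.051). On chromosome 11, where D2-13B6 stood apart, Vps53 was higher on the D2 background by 1.58 and an anchor in B3gnt2 lower by 1.20 (log2 fold change -1.20).

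The interaction, the interval effect on the D2 background minus that on the B6 background, was called in 27 members (0.731%, against 0.606% of all loops). The interaction was positive in 5 and negative in 22 of them, while 0.0537% of all loops were called as positive and 0.552% as negative. On chromosome 11, 9 were called (3.02% of members, against 2.12% of all loops there), all negative, which leaves 5 positive and 13 negative on the other chromosomes. The count was 8 without D2 replicate 1, 10 without either D2-13B6 replicate, 12 without B6-13D2 replicate 2, 15 without either B6 replicate, and 20 in each of the other runs. With library totals alone 37.5% of the calls were higher, against 18.5%.

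The 3 promoter anchors with the highest mean CPM were at Eya3, Lrig2 and Agps. Eya3, a phosphatase and transcriptional coactivator, had between 194 and 269 CPM in the 8 libraries and no called background difference (-0.12, edgeR FDR 0.573). Lrig2 was lower on the D2 background (-0.59, FDR 2.41e-06), although the ranges overlapped (124 to 222 against 188 to 314 CPM). Agps, which makes ether lipids, was not called (-0.27, FDR 0.0967). Without B6 replicate 1 it was called at -0.41 (FDR 0.00944). The 3 distal anchors with the most lay in Fbxw11, Ppp2r5e and Pias2, and the background difference was called at Ppp2r5e (-0.33, FDR 0.0371), where the ranges overlapped. That call was lost in 5 of 8 runs, those without B6 replicate 2, B6-13D2 replicate 2, either D2 replicate or D2-13B6 replicate 2 (FDR 0.0636 to 0.392). It was also lost with the D2-13B6 libraries counted once (FDR 0.0737).

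Of 26 naive pluripotency genes listed, 15 had a start in an anchor of 30 kb or more, and the share over all genes was not computed. A start in a narrow anchor was found for 9, among them Fgf4 (in an anchor without the 5′ end of the gene record), Klf4, Klf5 and Zfp42. In those 9 anchors edgeR called 0 for the background and 0 for the interval effect (2 and 1 at an unadjusted p of 0.05 or less), with median log2 differences of 0.20 and 0.03. Several were sparse: Klf4 had 0 to 6 counts per library, Nr5a2 1 to 11 and Klf5 3 to 12, while Fgf4 had 54 to 143. A count of 0 calls is therefore no evidence of equal contacts. Over all 3692 tested members 15.2% and 1.79% were called (8.85% and 0.986% of all loops). Of these members, 1082 and 593 had an unadjusted p of 0.05 or less in edgeR, and the medians were -0.06 and 0.05. Of the 20 LIF, WNT and ERK pathway genes, 9 were in narrow anchors. Among them were Lifr (in an anchor without the 5′ end of the gene record), Stat3, Socs3, Myc and Axin2. Again 0 of the 9 were called (3 and 2 at an unadjusted p of 0.05 or less, to be read beside the values of all tested members above), with medians of 0.56 and 0.11. Of these, Stat3, Axin2 and Socs3 lie on chromosome 11, and without them the medians were 0.40 and 0.12. Of the 23 heterochromatin and KRAB repression genes, 7 were, with 0 calls (0 and 0 unadjusted) and medians of 0.00 and -0.04. Of 12 formative and primed genes 3 were, of which 2 could be tested, with 0 calls (0 and 0 unadjusted). DESeq2 called 0 in these 4 lists, but gave an adjusted p, in the order above, to only 5, 6, 6 and 1 of their anchors for the background and to 1, 1, 1 and 0 for the interval effect.

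Cohesin, CTCF and loop factor genes had 9 narrow anchors, of 6 genes. For each effect edgeR called 2 of the 9 (22.2%), against 15.2% and 1.79% of all tested members and 8.85% and 0.986% of all loops, while DESeq2 called 1 for the background (of 8 with an adjusted p) and 0 for the interval effect (of 1). The medians were -0.30 and 0.13. An anchor of Pds5a and an anchor of Stag1, a regulator and a subunit of cohesin, were lower on the D2 background. Pds5a differed by -0.59 (edgeR FDR 0.00688), a call lost without B6-13D2 replicate 2 or D2-13B6 replicate 2 (FDR 0.0639 and 0.0838). Stag1 has several annotated starts, and its anchor at chr9:100955001-100980000, which holds an internal one, differed by -0.83 (FDR 0.000136). The Stag1 anchor that holds the 5′ end of the gene record, starting at position 100595001, was not called for the background effect. For the interval effect the anchor at chr9:100955001-100980000 was lower (-0.68, FDR 0.0227) and the one starting at position 100595001 was higher (0.76, FDR 0.0223). The former call was lost in 5 of 8 runs without 1 library and kept without B6 replicate 2, B6-13D2 replicate 1 or D2-13B6 replicate 1 (FDR 0.0622 to 0.24 where lost), and it was lost with the D2-13B6 libraries counted once (FDR 0.0516). The latter was lost in 7 and kept without B6-13D2 replicate 2 (FDR 0.0619 to 0.134).

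Zinc finger genes (symbols beginning with Zfp, Zscan, Zkscan or Rslcan) were numerous, with 78 genes in 75 anchors, 68 of them tested. The background effect was called in 13 (19.1%), 4 higher and 9 lower, and the interval effect in 5 (7.35%), 3 higher and 2 lower. Over all tested members these shares were 15.2% and 1.79%, and over all loops 8.85% and 0.986%. DESeq2 called 1 of these anchors for each effect, of 52 and 9 with an adjusted p. The medians over the tested anchors were -0.09 and -0.01. Off chromosome 11, where 62 were tested, they were -0.15 and 0.02, with 12 background calls (19.4%, 3 higher and 9 lower) and the same number of interval calls. The higher ones on the D2 background were Zfp93 (1.01), Zfp207 (0.94), Zfp1 (0.62) and Zfp810 (0.40), and the lower ones ran from Zfp13 with Zscan10 (-0.35) to Zfp820 (-1.85). Among the lower ones, Zfp790 (-1.52), Zfp27 with Zfp383 (-0.79) and Zfp74 (-0.81) lie in neighbouring anchors of chromosome 7. The calls of Zfp27 with Zfp383, Zfp93, Zfp536 and Zfp820 held in each run without 1 library, and those of the other 9 were lost in at least 1. Zfp790 was lost without B6 replicate 2 or D2 replicate 2 (FDR 0.0525 and 0.0819) and had -2.25 without D2 replicate 1. Zfp207 (on chromosome 11), Zfp1 and Zfp930 were lost in 4 of 8 runs, Zfp74 and Zfp13 with Zscan10 in 5, Zfp810 and Zfp951 in 6, and Zfp408 in all 8 (FDR 0.0502 to 0.417). With the D2-13B6 libraries counted once, Zfp951, Zfp810 and Zfp13 with Zscan10 were not called (FDR 0.0534, 0.0772 and 0.0853). For the interval effect, Zfp729a, Zfp367 and Zfp91 (0.61, FDR 0.00136) were higher and Zscan5b and Zfp141 (-0.74, FDR 0.0109) lower with the D2 allele. Zfp729a and Zscan5b were called in every run without 1 library, and the other 3 were not (Zfp91 without B6 replicate 1 or D2 replicate 2, FDR 0.128 and 0.113, and Zfp141 in 4 runs, FDR 0.0651 to 0.271).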

How the data were processed

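Loop counts of the 8 libraries were used as deposited, as whole-number counts per pair of anchors in 1 table and per pair of bins in 1 table per library. Per the submitters' processing notes the reads were processed with BWA 0.7.18, SAMtools 1.19.2 and edgeR 3.34.1 on mm10. The loop caller, and how the authors merged bins into anchors before the counts were deposited, are not given in the sources used here. Groups were taken from the sample labels. Starts came from GENCODE M21 on GRCm38, and coordinates are printed from 1.

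The counts were tested with edgeR 4.0.16 (quasi-likelihood, TMM factors, R 4.3.3) on the 44706 loops that reached 5 counts in 2 or more libraries. Each line had 1 mean, 8 contrasts were drawn, and p-values were adjusted over all tested loops by Benjamini-Hochberg. Contacts outside an anchor were summed and tested in the same way on 21174 anchors that reached 10 counts in 2 or more libraries. Shares were compared by exact permutation tests (scipy 1.17.1). On simulated counts for 44706 loops, the background effect recovered 52 of 100 changes of 2-fold and 100 of 100 of 4-fold, with 6 false calls. The simulated spread was the same for every loop, and all changed loops had a mean above 10 counts per library. The median 15-kb anchor, with 66 counts over 8 libraries, lies below that mean. Recovery among such sparser loops was not simulated. Intervals and floors (3 counts) cover counting error only.

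Named anchors were, for the background and the interval effect, the 5 promoter and 5 distal anchors with the smallest FDR in each direction among called ones without overlap between sides. For each contrast of 2 lines the 2 smallest in each direction were taken by the same condition. Chromosome 11 was left out of these, except that 1 anchor in each direction was named apart for the background effect, and an anchor within 1 Mb of one already named in the same contrast and direction was skipped. The 3 promoter and 3 distal anchors with the highest mean CPM and the called members of the gene lists were added. The members and the lists were chosen with earlier results of these data known. Replicate numbers did not pair the libraries: the differences between replicates 1 and 2 correlated between lines at -0.044 to 0.0067, so no block was used. Alternatives were other scaling, filters and thresholds, DESeq2 1.42.0, a replicate block, chromosome 11 left out, a narrower width limit, single libraries left out and, chosen after seeing the data, another promoter definition, a higher minimum for outside contacts, and D2-13B6 counted as 1 library.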

Additional observations from a re-analysis of the deposited data

Results flagged for a closer look

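One distal anchor with a high count stood apart because its interval effect differed between the backgrounds. The anchor chr18:77100001-77125000 lies in Pias2, which encodes a SUMO ligase that inhibits STAT signalling. Its counts were 100 and 76 in B6, 184 and 225 in B6-13D2, 90 and 103 in D2, and 177 and 175 in D2-13B6. In CPM these were 125 and 124 in B6, 228 and 204 in B6-13D2, 129 and 164 in D2, and 158 and 154 in D2-13B6. The interaction was -0.88 on the log2 scale (edgeR FDR 0.0275). B6-13D2 was above B6 by 0.79 (FDR 0.000766), while the D2 and D2-13B6 libraries overlapped (log2 difference -0.09, FDR 0.914). No group of 4 libraries held a value far from the others by Dixon's criterion among the shares tested.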

How the results depend on the processing

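Each count below is of members called at an FDR of 0.05 unless stated, and the cause of a change was not tested. Without a filter on low counts, edgeR called 79 members for D2 minus B6, 25 for B6-13D2 minus B6, 177 for D2-13B6 minus B6, 135 for D2 minus B6-13D2, 278 for the background and 16 for the interval effect. The percent called was then 5.87% of promoter and 8.07% of distal anchors for the background and 0.505% and 0.299% for the interval effect. DESeq2 called 53, 5, 107 and 60 for the same 4 pairs of lines, 11 for D2 minus D2-13B6, 184 for the background, 8 for the interval and 4 for the interaction, with 780 and 108 for outside contacts (background and interval). Its percents were 5.04% of promoter and 8.29% of distal anchors for the background and 3.57% of distal anchors (1 of 28) for the interval effect, since DESeq2 gave only 286 members an adjusted p for that effect and for the interaction. At an FDR of 0.01 the counts for the 4 pairs were 105, 18, 219 and 133, and those for D2 minus D2-13B6, background, interval and interaction were 20, 359, 28 and 9, with 184 outside for the interval. The percents for the background and the interval effect were 8.0% and 0.805% of promoter anchors and, for the background, 10.5% of distal anchors. In each alternative where both were computed, the background effect was called in a larger percent of distal than of promoter anchors.

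With anchors under 25 kb alone the 4 pairs gave 113, 27, 249 and 150, D2 minus D2-13B6 19, the interval 34 and the interaction 16, with 10.3% of promoter anchors for the background and 0.483% of distal anchors for the interval effect. A scaling factor per chromosome gave 24 for D2 minus D2-13B6, 17 for the interaction and 1.33% of promoter anchors for the interval effect. Without chromosome 11 these were 26, 14 and 1.41%, with 254 outside for the interval. With at least 10 counts, D2 minus D2-13B6 called 67, and the percents for background and interval were 17.3% and 3.57% at promoters and 25.8% and 2.70% at distal sites. Counting the D2-13B6 libraries once, which was chosen after seeing the data, gave 21 for D2 minus D2-13B6, 41 for the interval, 12 for the interaction, 241 outside for the interval, and 11.1% and 1.23% of promoter anchors. Library totals alone gave 16 for the interaction. The replicate block gave 15 for the interaction, moved no other count by over 1.5 times; the replicate numbers are not a pairing of the design.

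When 1 library was left out, the counts ran from 76 to 179 (D2 minus B6), 11 to 50 (B6-13D2 minus B6), 11 to 47 (D2 minus D2-13B6), 183 to 384 (D2-13B6 minus B6), 109 to 241 (D2 minus B6-13D2), 406 to 503 (background), 20 to 78 (interval) and 8 to 20 (interaction). Outside contacts gave 1087 to 1340 and 150 to 488. The percents called were 9.09% to 11.7% and 0.568% to 2.37% at promoters and 12.6% to 15.5% and 0.541% to 1.95% at distal sites. The differences in the narrow share were -0.527 to -0.328 (background), 0.235 to 0.493 (interval) and -0.263 to 0.0319 points (parental minus congenic). Those in the promoter share were 0.374 to 1.10, -0.401 to 0.418 and -1.35 to -0.753 points, and those in the inside share -0.796 to -0.389, 0.304 to 0.821 and -0.755 to -0.334 points. Of the values of named anchors under all alternatives, 1284 kept direction and side of the threshold, 189 lost the call, 1 gained it and 0 turned. The calls lost without 1 library and with the D2-13B6 libraries counted once stand beside their values. In the following, values without an adjusted p are not counted. DESeq2 lost 12 (background: Zfp207, Zfp408, Pds5a, Zfp1, Zfp13 with Zscan10, Zfp536, Zfp74, Zfp810, Zfp93, Zfp930 and the anchor in Ppp2r5e; interval: that near Fads2). The fit without a filter on low counts lost the same ones but Zfp536 and Zfp93, and also Zfp790, Zfp820 and Zfp951 for the background and Capza2, Eloc with Tmem70, Gm3045, both Stag1 anchors, Zfp141, Cdh4, Dmd, Mtus2 and chr5:14305001-14325000 for the interval effect (23 in all). A scaling factor per chromosome lost 7: Zfp207, Zfp408, Zfp951 and Ppp2r5e for the background and Eloc with Tmem70, Cdh4 and Dmd for the interval effect. The replicate block lost 6 and the fit without chromosome 11 lost 5: Zfp13 with Zscan10, Zfp951, Ppp2r5e, Cdh4 and Dmd in both, and Zfp810 under the block. Library totals alone lost Zfp810. An FDR of 0.01 lost 17.

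The counts limit what can be seen: a 15-kb anchor had a median of 66 counts over 8 libraries, and 219 members were too sparse to test. Each genotype is 1 line with technical replicates.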
